A study of Homo sapiens with 12 samples.

Results

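The genes described here encode the machinery that brings secretory and membrane proteins to the endoplasmic reticulum (ER), moves them across or into its membrane and removes their signal peptides. They were chosen by name, as 39 symbols of 9 complexes that were each matched to 1 row of the count table through its Ensembl ID, out of 20015 genes in all. The complexes are the signal recognition particle (SRP, 6 genes), its receptor (2), the SEC61 channel (3), SEC62 and SEC63 (2), the translocon-associated protein complex (TRAP, 4), TRAM1, TRAM2 and the ribosome-binding protein RRBP1 (3), signal peptidase (5), the GET pathway (6) and the ER membrane protein complex (EMC, 8). The libraries come from HT29, a human colorectal adenocarcinoma line, carrying the Cas9 nuclease in all groups. Cells had received a lentiviral guide against QRICH1 (QRICH1 KO) or a non-targeting guide (WT). They were then given tunicamycin (Tm), an inhibitor of N-linked glycosylation that causes ER stress, at 0.3 µg/ml for 14 h, or the solvent DMSO. The 4 groups are QRICH1 KO Tm, QRICH1 KO DMSO, WT Tm and WT DMSO, with 3 libraries each that the series calls biological replicates. The series asks how QRICH1, a glutamine-rich protein, shapes transcription during ER stress. The labels do not say whether the knockout cells are a pool or a clone, and a single line was used.

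Most secreted proteins are recognised as they leave the ribosome, when SRP binds the signal sequence and docks on its receptor at the ER. The ribosome then sits on the SEC61 channel, with TRAP and TRAM as helpers, and signal peptidase cuts the signal sequence off. Proteins held by a single anchor at their tail are instead handed over by the GET pathway after synthesis, and the EMC inserts many other membrane segments. Genes of the co-translational route are well-known targets of the unfolded protein response, the programme that raises ER capacity when unfolded proteins accumulate.

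Total counts ran from 6856736 to 17861844 per library, and the 39 genes took 0.332% to 0.906% of them. Genes with at least 1 count numbered 13124 to 15340, with the most in library 3 of QRICH1 KO DMSO and next library 3 of QRICH1 KO Tm. Levels are given as CPM, counts relative to the library total scaled by TMM, a correction for differences in library composition. A count of 0 allows a level of up to 0.168 to 0.438 CPM, covering counting error only. Of 10 colonic epithelial markers 9 passed the filter on low counts, with summed levels of 58603 to 99306 CPM. Most of that sum came from the keratins KRT8 and KRT18, which averaged 46907 and 26987 CPM in WT DMSO. The list was not high throughout, since group means were 0 to 0.0188 CPM for CDX1 and 0.602 to 0.776 CPM for CDX2. Of 15 markers of other cell types 3 passed, with summed levels of 3.17 to 6.79 CPM, and CD3E was at 0 in all 12 libraries. HSPA5, the ER chaperone BiP, averaged 16463 ± 1342 CPM in QRICH1 KO Tm and 1127 ± 65.8 CPM in QRICH1 KO DMSO, and 27850.3 ± 2626 CPM in WT Tm and 1081 ± 116 CPM in WT DMSO (SD, n = 3 each). QRICH1 itself averaged 22.8 ± 3.84 CPM in QRICH1 KO Tm against 29.2 ± 3.04 CPM in WT Tm, and 24.1 ± 0.714 CPM in QRICH1 KO DMSO against 29.6 ± 6.26 CPM in WT DMSO. Neither difference was called (adjusted p = 0.352 under Tm and 0.577 under DMSO). A Cas9 cut need not lower the level of the mRNA, so these counts do not check the knockout.

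Of the 39 genes, 38 passed the filter. EMC6, a small EMC subunit, did not, with 6, 3 and 5 counts in QRICH1 KO Tm, 5, 9 and 0 in QRICH1 KO DMSO, 3, 5 and 0 in WT Tm, and 3, 9 and 2 in WT DMSO. Its exons overlap those of P2RX5-TAX1BP3 on the opposite strand over 74.2% of their length, and the library chemistry does not mark the strand. In all, 16 of the 39 genes share exon sequence with another gene of the count table. For the 5 genes called between genotypes under Tm, this covered 11.8% of the exon length in SRPRB (TF and RAB6B) and 7.32% in SEC61A1 (RUVBL1). It covered 3.79% in SRPRA (FAM118B and FOXRED1), 0.608% in SSR1 (CAGE1) and 0% in TRAM1. Of the 39 genes 9 (SRP9, SRP14, SRP68, SRP72, SEC63, SSR1, SSR4, SPCS2 and GET1) have pseudogenes in the annotation, and how reads that map to several places were counted is not given in the sources used here, so their counts are uncertain. The tested genes differed widely in level within their complexes when CPM was divided by the length of the main annotated mRNA. In WT DMSO, SRP14 stood at 336 CPM per kb and SRP19 at 2.69 CPM per kb, although both are parts of the same particle. The SEC61 subunits were much closer together. SEC61A1, SEC61B and SEC61G had 399, 297 and 268 CPM per kb in WT Tm, and 81.2, 76.7 and 51.0 CPM per kb in WT DMSO. GET4 was the lowest tested gene, at 0.891 CPM per kb in WT Tm and 0.299 CPM per kb in WT DMSO.

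**Figure D1:**
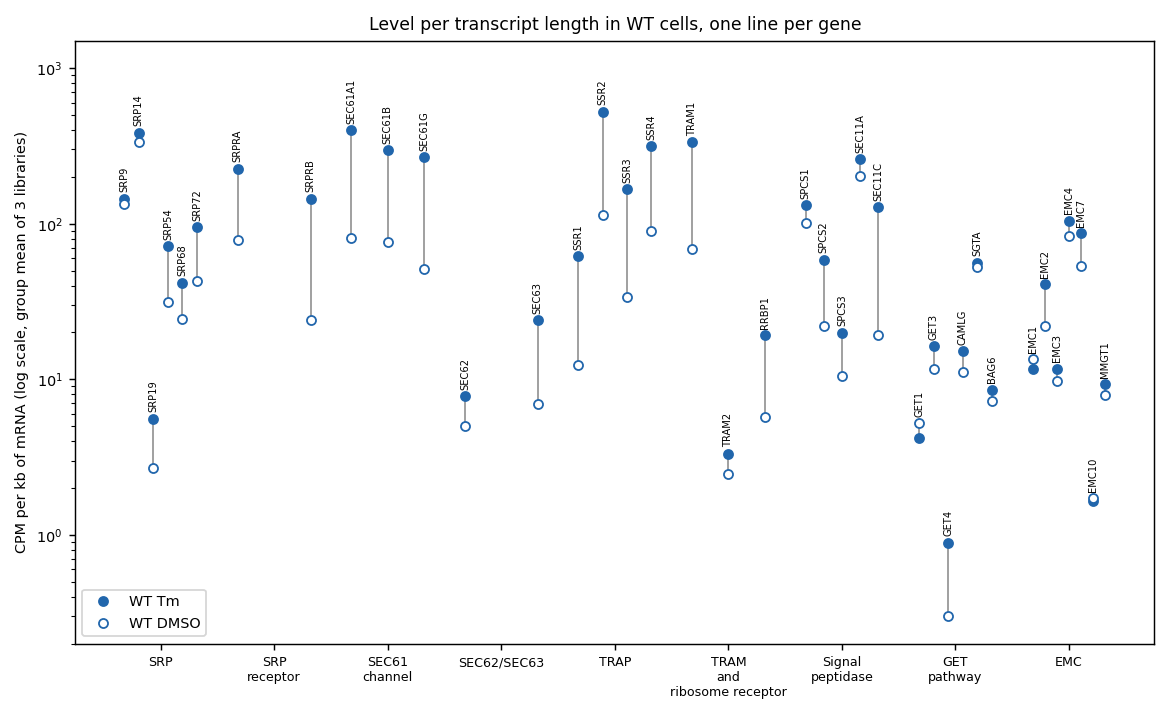
Mean level per kb of mRNA (vertical axis, log scale, 3 libraries each) of the 38 tested genes in WT Tm (filled circles) and WT DMSO (open circles), grouped by complex along the horizontal axis. The SEC61, TRAP and receptor genes lie higher with Tm, while most GET and EMC genes lie at similar levels in both groups.

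With Tm, 23 of the 38 genes rose in QRICH1 KO cells and 27 of 38 rose in WT cells, and none fell in either genotype (edgeR, adjusted p under 0.05). Across all 11323 genes tested, 9.09% rose and 6.53% fell in QRICH1 KO, and 12.6% rose and 11.1% fell in WT. DESeq2 called the same 23 genes and EMC4 higher in QRICH1 KO (all genes, 9.78%), and the same 27 genes, GET3 and GET4 higher in WT (all genes, 12.9%). The median log2 fold change of the 38 genes was 0.58 in QRICH1 KO and 0.90 in WT, against -0.0039 in QRICH1 KO and -0.02 in WT for all genes. In QRICH1 KO 14 of the called genes rose at least 2-fold, and in WT 17 did. The share of all genes at that fold was not taken, so these counts stand without a background. The libraries were separate, every Tm library above every DMSO library, for 27 of 38 genes in QRICH1 KO (all genes, 16.9%) and 29 of 38 in WT (all genes, 19%). Every Tm library lay below every DMSO library for 3 genes in QRICH1 KO (SGTA, EMC10 and GET1; all genes, 15.5%) and for 0 in WT (all genes, 18.5%). Without library 3 of both QRICH1 KO groups, which had the most detected genes, 21 genes rose in QRICH1 KO and 25 in WT. Since these are bulk samples, a change in the share of some cells cannot be told apart from a change in RNA per cell.

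The calls were spread unevenly over the complexes. All genes of the SRP receptor, SEC61, SEC62 with SEC63, TRAP, and TRAM with RRBP1 rose, as 14 of 14 in QRICH1 KO and 14 of 14 in WT. SRP had 3 of 6 genes called in QRICH1 KO and 4 of 6 in WT, and signal peptidase 4 of 5 and 5 of 5. SEC62 and TRAM2 had the smallest rises of the 14 and lost their calls in both genotypes when libraries were scaled by total counts alone. Without 1 library at a time, 12 to 14 of the 14 stayed called in QRICH1 KO and 13 to 14 in WT. Those lost were TRAM2 in WT (any 1 WT Tm library, WT DMSO libraries 2 or 3, QRICH1 KO DMSO library 2), TRAM2 in QRICH1 KO (any 1 QRICH1 KO DMSO library, QRICH1 KO Tm library 2) and SEC62 in QRICH1 KO (any 1 QRICH1 KO Tm library, QRICH1 KO DMSO libraries 1 or 2, WT Tm library 3, WT DMSO library 2). Of the 13 tested GET and EMC genes, 2 rose in QRICH1 KO (15.4%) and 4 in WT (30.8%), beside the 9.09% and 12.6% of all genes. That count was 1 in QRICH1 KO and 2 in WT with total-count scaling, 3 and 6 with DESeq2, and 2 in WT without library 3 of WT Tm. Without both libraries 3 of QRICH1 KO it was 1 in QRICH1 KO and 3 in WT. The smaller SRP subunits SRP9 and SRP14, which form the Alu domain that slows translation, passed in neither genotype in the main edgeR fit. That fit used the filter, 4 group means and all 12 libraries. By the same fit the genes that rose in WT but did not pass in QRICH1 KO were SRP68, SEC11A, CAMLG and EMC4. This list moved with the tool and setting, since DESeq2 called EMC4 in QRICH1 KO, and SRP68 was called there with no filter, with only the groups compared, and without library 1 of QRICH1 KO DMSO or library 1 or 3 of WT DMSO. Their response was not shown to differ between the genotypes, because the interaction did not pass for any of them (adjusted p = 0.875, 0.858, 0.871 and 0.999).

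**Figure D2:**
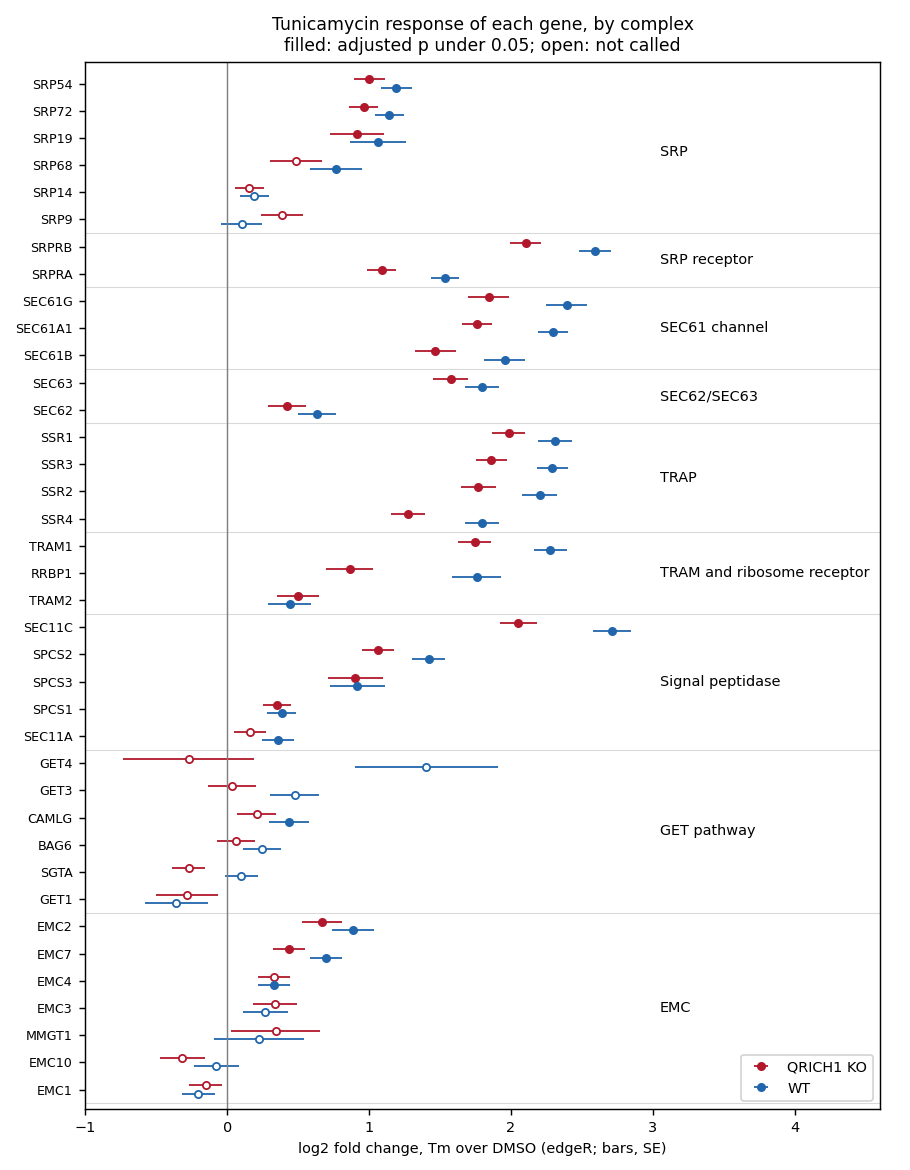
Log2 fold change of Tm over DMSO (horizontal axis) with its SE for each tested gene, by complex, in QRICH1 KO (red) and WT (blue), filled where called. All 14 genes of the receptor, SEC61, SEC62/SEC63, TRAP and TRAM groups are filled in both genotypes, while 11 of the 13 GET and EMC genes are open in QRICH1 KO and 9 of 13 in WT.

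Promoter windows of RefSeq (GRCh38.p14), from 250 bases before to 50 after a transcript start, were available for 33 of the 39 genes and were searched on both strands for binding motifs of stress transcription factors. The UPRE core (TGACGTGG), a known XBP1 and ATF6 motif, lay in 4 of 33 genes (12.1%), against 1.19% of all tested genes with a window and 4.32% of tested genes that rose with Tm in WT. The CRE (TGACGTCA) lay in 1 of 33 (3.03%), against 3.95% of tested genes. No window held the ERSE (CCAAT, 9 bases of any kind, CCACG), the ERSE-II (ATTGG, 1 base, CCACG) or the C/EBP-ATF motif (TTGCATCA or TTGCACCA), which were found in 0.162%, 0.14% and 1.23% of tested genes. The windows with a UPRE or CRE are printed up to the start site, to set their sequence beside the response of the gene. They were chosen after the search, since the intended choice by ERSE found none. Capitals mark the match, and the UPRE appears as its reverse complement CCACGTCA.
SRP19, chr5:112861037-112861286, plus strand: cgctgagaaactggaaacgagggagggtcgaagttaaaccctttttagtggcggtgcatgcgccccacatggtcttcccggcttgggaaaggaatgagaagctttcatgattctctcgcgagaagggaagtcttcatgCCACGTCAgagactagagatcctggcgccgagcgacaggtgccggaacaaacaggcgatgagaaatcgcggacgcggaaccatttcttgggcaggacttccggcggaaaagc
SEC62, chr3:169966557-169966806, plus strand: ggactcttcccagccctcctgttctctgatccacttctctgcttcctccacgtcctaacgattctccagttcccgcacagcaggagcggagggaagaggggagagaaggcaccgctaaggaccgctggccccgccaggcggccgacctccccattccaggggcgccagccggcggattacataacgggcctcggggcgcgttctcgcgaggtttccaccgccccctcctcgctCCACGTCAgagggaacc
SSR3, chr3:156554126-156554375, minus strand: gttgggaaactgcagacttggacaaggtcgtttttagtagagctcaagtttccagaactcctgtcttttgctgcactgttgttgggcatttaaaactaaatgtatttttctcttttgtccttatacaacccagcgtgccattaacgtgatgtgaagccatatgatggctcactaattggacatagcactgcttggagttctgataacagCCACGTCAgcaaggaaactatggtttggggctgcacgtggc
SSR4, chrX:153794418-153794667, plus strand: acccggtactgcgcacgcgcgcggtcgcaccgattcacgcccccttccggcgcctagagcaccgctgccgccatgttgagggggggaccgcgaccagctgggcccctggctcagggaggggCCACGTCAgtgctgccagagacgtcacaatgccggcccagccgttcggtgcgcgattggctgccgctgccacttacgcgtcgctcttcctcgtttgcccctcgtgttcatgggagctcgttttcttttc
EMC10, chr19:50476257-50476506, plus strand: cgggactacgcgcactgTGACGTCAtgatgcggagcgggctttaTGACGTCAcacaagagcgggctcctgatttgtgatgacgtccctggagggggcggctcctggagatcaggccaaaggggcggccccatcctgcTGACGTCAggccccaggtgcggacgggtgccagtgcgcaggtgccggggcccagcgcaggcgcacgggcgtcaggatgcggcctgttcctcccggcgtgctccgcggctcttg
The UPRE lay between -112 and -105 from the start in SRP19, -17 and -10 in SEC62, -41 and -34 in SSR3, and -129 and -122 in SSR4. The SSR3 and SSR4 windows belong to starts well inside the gene body of GENCODE 29. The SEC62 match also lay inside its gene body, which starts at chr3:169966635. EMC10 held the CRE 3 times, first at -233, -206 and -113. All 4 genes with a UPRE rose with Tm in both genotypes, by 1.89-, 1.34-, 3.63- and 2.42-fold in QRICH1 KO and 2.09-, 1.55-, 4.90- and 3.48-fold in WT. EMC10 did not pass in either (log2 -0.32 and -0.08). Of the 33 genes with a window, 23 rose with Tm in WT, and the other 10 were not called or not tested. Many genes without a UPRE thus rose too, and whether the motif goes with the response was not tested. A match is a string of letters and not a measured binding site.

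Within SRP, SRP54, the GTPase that grips the signal sequence, responded most. It had 143, 144 and 121 CPM in QRICH1 KO Tm libraries 1 to 3, against 74.8, 64.3 and 64.4 CPM in QRICH1 KO DMSO, a 2.0-fold rise (log2 1.0 ± 0.11 SE, adjusted p = 2.5e-06). In WT it had 171, 156 and 175 CPM with Tm, against 74.3, 71.3 and 73.7 CPM with DMSO, a 2.29-fold rise (log2 1.19 ± 0.11 SE, adjusted p = 1.65e-07). Every Tm library lay above every DMSO library in both genotypes. SRP72, which holds the particle's RNA with SRP68, rose 1.95-fold in QRICH1 KO and 2.21-fold in WT. SRP9 responded least in WT, with 225, 166 and 252 CPM with Tm against 173, 205 and 220.3 CPM with DMSO, and these libraries overlapped (adjusted p = 0.68). In QRICH1 KO it had 229.7, 255 and 209 CPM with Tm against 178, 154 and 199 CPM with DMSO, separate groups that did not pass (adjusted p = 0.083). SRP9 was called higher in QRICH1 KO with no filter, without library 3 of QRICH1 KO DMSO, without library 2 of WT Tm and without both libraries 3 of QRICH1 KO.

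Both receptor subunits rose. SRPRB, the membrane anchor (gene body at hg38 chr3:133784033-133825772), had 306, 321 and 267 CPM in QRICH1 KO Tm against 71.3, 66.3 and 70.3 CPM in QRICH1 KO DMSO. In WT it had 407, 437 and 381 CPM with Tm against 66.9, 62.5 and 73.4 CPM with DMSO. The Tm libraries stood well clear of the DMSO libraries, at 4.30-fold in QRICH1 KO (log2 2.10 ± 0.11 SE, adjusted p = 1.56e-10) and 6.04-fold in WT (log2 2.59 ± 0.11 SE, adjusted p = 5.95e-12). SRPRA, the GTPase that docks SRP (chr11:126262919-126269144), had 533, 546 and 473 CPM in QRICH1 KO Tm against 259, 234 and 237 CPM in QRICH1 KO DMSO, and 656, 732 and 692 CPM in WT Tm against 244, 242 and 233 CPM in WT DMSO. Its rise was 2.12-fold in QRICH1 KO (adjusted p = 2.6e-07) and 2.89-fold in WT (adjusted p = 1.66e-09), again with no overlap.

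All 3 SEC61 genes rose in both genotypes. SEC61A1, the pore (chr3:128051641-128071683), had 1005, 1116 and 1071 CPM in QRICH1 KO Tm against 293, 310.4 and 338 CPM in QRICH1 KO DMSO, and 1463, 1534 and 1354 CPM in WT Tm against 280.3, 299 and 306 CPM in WT DMSO. The rise was 3.39-fold in QRICH1 KO (adjusted p = 7.11e-10) and 4.91-fold in WT (adjusted p = 1.43e-11). Of the small subunits that flank the pore, SEC61G had 132, 143 and 146 CPM in QRICH1 KO Tm against 47.4, 37.4 and 32.7 CPM in QRICH1 KO DMSO, and 181, 227 and 180.2 CPM in WT Tm against 34.7, 34.8 and 42.5 CPM in WT DMSO. SEC61B had 137, 117 and 118 CPM in QRICH1 KO Tm against 50.5, 45.3 and 38.5 CPM in QRICH1 KO DMSO, and 138, 192 and 155 CPM in WT Tm against 44.5, 36.1 and 44.9 CPM in WT DMSO. In each the groups were separate, with SEC61G at 3.59-fold in QRICH1 KO and 5.24-fold in WT, and SEC61B at 2.76-fold and 3.88-fold.

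SEC63, which recruits the chaperone BiP to the channel, had 104, 119 and 126 CPM in QRICH1 KO Tm against 36.3, 37.1 and 43.9 CPM in QRICH1 KO DMSO, and 164, 140.0 and 158 CPM in WT Tm against 41.0, 48.8 and 42.9 CPM in WT DMSO. SEC62, its partner, had 42.4, 41.7 and 41.6 CPM in QRICH1 KO Tm against 29.4, 28.2 and 36.3 CPM in QRICH1 KO DMSO, and 57.2, 44.0 and 52.8 CPM in WT Tm against 29.3, 33.1 and 36.4 CPM in WT DMSO. The Tm libraries of both genes lay above the DMSO libraries in each genotype. The rise was 2.98-fold for SEC63 and 1.34-fold for SEC62 in QRICH1 KO, and 3.47-fold and 1.55-fold in WT. The rise of SEC62 in QRICH1 KO was close to the limit (adjusted p = 0.0405).

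All 4 TRAP subunits rose, by 2.42-fold (SSR4) to 3.95-fold (SSR1) in QRICH1 KO and 3.48-fold (SSR4) to 4.96-fold (SSR1) in WT. SSR1, the alpha subunit (chr6:7268306-7347446), had 384, 379.7 and 395 CPM in QRICH1 KO Tm against 86.6, 91.8 and 115 CPM in QRICH1 KO DMSO, and 627, 585 and 574 CPM in WT Tm against 109, 124 and 127 CPM in WT DMSO. SSR4, the delta subunit, had 424, 409 and 374 CPM in QRICH1 KO Tm against 182, 166 and 152 CPM in QRICH1 KO DMSO, and 501, 615 and 458 CPM in WT Tm against 158, 148 and 147 CPM in WT DMSO. None of these libraries overlapped between Tm and DMSO.

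TRAM1, which sits beside the channel and helps nascent chains enter the membrane (chr8:70573442-70608387), had 505, 596 and 592 CPM in QRICH1 KO Tm against 168, 169 and 167 CPM in QRICH1 KO DMSO, and 998, 789 and 1006 CPM in WT Tm against 179, 195 and 201 CPM in WT DMSO. This was 3.35-fold higher in QRICH1 KO and 4.85-fold higher in WT. Its paralog TRAM2 had 24.6, 30.9 and 23.9 CPM in QRICH1 KO Tm against 18.4, 19.8 and 18.0 CPM in QRICH1 KO DMSO, and 23.0, 24.6 and 21.3 CPM in WT Tm against 18.6, 18.2 and 14.3 CPM in WT DMSO. TRAM2 rose 1.41-fold in QRICH1 KO (adjusted p = 0.0293) and 1.36-fold in WT (adjusted p = 0.0438). No Tm library of TRAM1 or TRAM2 overlapped a DMSO library of the same genotype. RRBP1, which binds ribosomes on the rough ER, rose 1.82-fold in QRICH1 KO and 3.38-fold in WT.

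In signal peptidase 4 of 5 genes rose in QRICH1 KO and 5 of 5 in WT. SEC11C, a catalytic paralog of SEC11A, had 107, 115 and 107 CPM in QRICH1 KO Tm against 31.2, 24.7 and 23.3 CPM in QRICH1 KO DMSO, and 151, 151 and 157 CPM in WT Tm against 19.5, 24.2 and 26.0 CPM in WT DMSO. Its Tm and DMSO libraries were separate in both genotypes. It rose 4.15-fold in QRICH1 KO (log2 2.05 ± 0.13 SE, adjusted p = 1.7e-09) and 6.53-fold in WT (log2 2.71 ± 0.13 SE, adjusted p = 3.2e-11), which was the highest fold in WT among the 38 genes. SEC11A had 428, 414 and 362 CPM in QRICH1 KO Tm against 399, 348 and 332 CPM in QRICH1 KO DMSO, where the libraries overlapped, and 381, 466 and 448 CPM in WT Tm against 362, 331 and 320.0 CPM in WT DMSO, where they did not. SEC11A was 1.12-fold higher in QRICH1 KO (adjusted p = 0.39) and 1.28-fold in WT (adjusted p = 0.029). The accessory subunits SPCS1, SPCS2 and SPCS3 rose in both genotypes, SPCS2 by 2.09-fold in QRICH1 KO and 2.67-fold in WT. The call of SPCS1 in QRICH1 KO (adjusted p = 0.0231) was lost with total-count scaling, with no filter, without any 1 QRICH1 KO DMSO library, without library 1 or 2 of QRICH1 KO Tm and without both libraries 3 of QRICH1 KO. In WT it was lost with total-count scaling and without library 2 of WT DMSO. The call of SEC11A in WT was lost with total-count scaling and without library 2 or 3 of WT Tm or of WT DMSO. Exons of SPCS1 overlap GLT8D1 and NEK4 on the opposite strand over 58.1% of their length, so its reads cannot be fully assigned.

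The ratio of SEC11C to SEC11A counts was 0.249, 0.277 and 0.296 in QRICH1 KO Tm against 0.0781, 0.0709 and 0.0701 in QRICH1 KO DMSO. In WT it was 0.395, 0.325 and 0.349 with Tm against 0.0537, 0.0732 and 0.0812 with DMSO. On the log2 scale the ratio was higher with Tm by 1.91 in QRICH1 KO and by 2.38 in WT. The exact permutation test, two-sided, gave p = 0.1 for each, the smallest that 3 libraries against 3 allow, so 0.05 could not be reached (adjusted over 8 tests, p = 0.114). Under Tm every QRICH1 KO ratio of SEC11C to SEC11A lay below every WT ratio, with a log2 difference of -0.38 (exact p = 0.1), and under DMSO the log2 difference was 0.09 (exact p = 0.9). The ratio of TRAM2 to TRAM1 was 0.0487, 0.0519 and 0.0403 in QRICH1 KO Tm against 0.109, 0.117 and 0.107 in QRICH1 KO DMSO. In WT it was 0.0231, 0.0312 and 0.0212 with Tm against 0.104, 0.0933 and 0.0711 with DMSO. Under Tm the TRAM2 to TRAM1 ratio was higher in QRICH1 KO than in WT by 0.91 on the log2 scale, with separate libraries and the same exact p of 0.1 (adjusted p = 0.114). Under DMSO it was also higher in QRICH1 KO, by 0.33 on the log2 scale, again with separate libraries and exact p = 0.1 (adjusted p = 0.114). These paralog ratios are within libraries, so the scaling does not enter them.

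**Figure D3:**
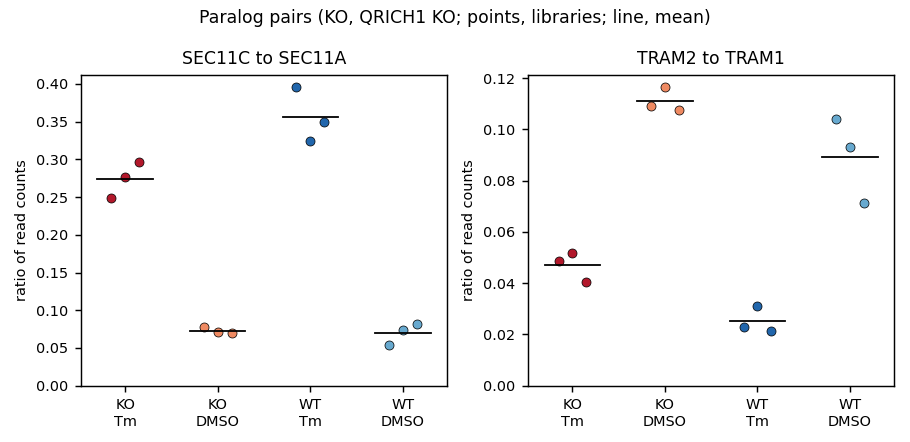
Ratio of read counts of SEC11C to SEC11A (left) and TRAM2 to TRAM1 (right) in each library (points) with the group mean (line). Tm libraries lie above DMSO libraries for SEC11C to SEC11A and below them for TRAM2 to TRAM1, in both genotypes.

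In the GET pathway CAMLG, which with GET1 forms the receptor for tail-anchored proteins, was the single gene called in the main edgeR fit. It was 1.15-fold higher in QRICH1 KO, which did not pass (adjusted p = 0.36), and rose 1.35-fold in WT (adjusted p = 0.0304). Its call in WT was lost with total-count scaling and without library 1 or 3 of WT Tm or library 2 or 3 of WT DMSO. The other 5 GET genes passed in neither genotype in the main edgeR fit. Among them were BAG6 and SGTA, which capture tail-anchored proteins, and GET3, the ATPase that carries them. DESeq2 called GET3 (adjusted p = 0.0439) and GET4 (adjusted p = 0.0452) higher with Tm in WT. By edgeR GET3 was called there without library 3 of WT DMSO, and GET4 with no filter, with a replicate block and without library 2 of WT DMSO. SGTA was called lower with Tm in QRICH1 KO with total-count scaling. GET1 had 5.0, 6.32 and 6.13 CPM in QRICH1 KO Tm against 6.84, 7.21 and 7.13 CPM in QRICH1 KO DMSO, and 6.19, 5.77 and 8.36 CPM in WT Tm against 6.26, 9.56 and 9.52 CPM in WT DMSO. GET4, part of the handover complex, had 1.27, 1.76 and 1.19 CPM in QRICH1 KO Tm against 1.92, 1.73 and 1.38 CPM in QRICH1 KO DMSO, and 1.65, 2.11 and 1.82 CPM in WT Tm against 0.136, 1.22 and 0.521 CPM in WT DMSO. The GET1 libraries with Tm lay below those with DMSO in QRICH1 KO and overlapped them in WT, and the GET4 libraries overlapped in QRICH1 KO and were separate in WT. Neither gene passed in either genotype in the main edgeR fit, and GET4 carried a wide error (log2 1.40 ± 0.50 SE in WT). Exons of GET1 overlap WRB-SH3BGR and LCA5L and those of GET4 overlap SUN1, so both are uncertain.

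In the EMC, EMC2, a subunit on the cytosolic side, had 36.1, 37.9 and 46.5 CPM in QRICH1 KO Tm against 22.6, 23.8 and 29.6 CPM in QRICH1 KO DMSO, and 54.4, 47.3 and 50.2 CPM in WT Tm against 23.4, 30.9 and 27.5 CPM in WT DMSO. It rose 1.59-fold in QRICH1 KO (adjusted p = 0.00365) and 1.85-fold in WT (adjusted p = 0.000176), without overlap. EMC1, the largest subunit, had 69.0, 74.3 and 86.9 CPM in QRICH1 KO Tm against 81.3, 83.5 and 91.0 CPM in QRICH1 KO DMSO, and 78.3, 82.3 and 73.7 CPM in WT Tm against 81.2, 102 and 86.8 CPM in WT DMSO, with overlapping libraries. EMC7 rose 1.35-fold in QRICH1 KO and 1.62-fold in WT, and EMC4 rose 1.25-fold in WT (adjusted p = 0.0436). The call of EMC7 in QRICH1 KO was lost with total-count scaling and without both libraries 3 of QRICH1 KO. That of EMC4 in WT was lost with total-count scaling, no filter, only the groups compared and a replicate block, without both libraries 3 of QRICH1 KO, and without library 2 of QRICH1 KO Tm or QRICH1 KO DMSO, library 2 or 3 of WT Tm, or library 1 or 2 of WT DMSO. EMC3, which forms the insertase core, EMC10 and MMGT1 passed in neither genotype.

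Summed over all 39 genes, the level was 7286 ± 252 CPM in QRICH1 KO Tm, 3514 ± 121 CPM in QRICH1 KO DMSO, 9369 ± 212 CPM in WT Tm and 3488 ± 126 CPM in WT DMSO (SD, n = 3 each). The TRAP genes summed to 1715 ± 75.6 CPM in QRICH1 KO Tm, 528 ± 27.0 CPM in QRICH1 KO DMSO, 2324 ± 146 CPM in WT Tm and 524 ± 19.7 CPM in WT DMSO. The GET genes summed to 208 ± 12.6 CPM in QRICH1 KO Tm, 229 ± 5.27 CPM in QRICH1 KO DMSO, 228 ± 7.56 CPM in WT Tm and 200.0 ± 13.2 CPM in WT DMSO.

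**Figure D4:**
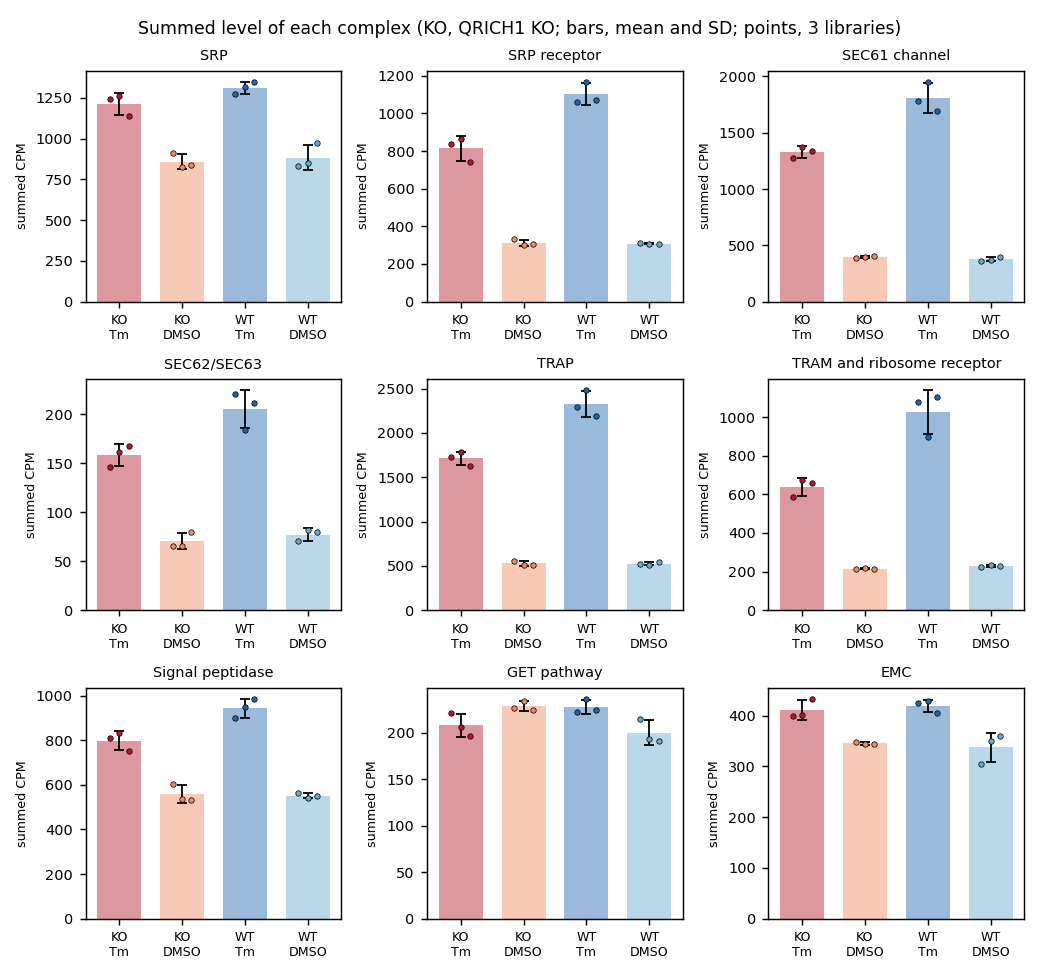
Summed CPM of each complex (vertical axes start at 0) in QRICH1 KO (KO) and WT with Tm or DMSO. Bars are means with SD and points are the 3 libraries. In TRAP, SEC61 and the receptor the QRICH1 KO Tm libraries sit between the WT Tm and the DMSO libraries.

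Between genotypes under Tm, 5 of the 38 genes were lower in QRICH1 KO than in WT and none was higher, against 0.76% lower and 0.406% higher among all genes tested. These shares, of 86 and 46 genes, moved with single libraries as well, and without any 1 of the 6 Tm libraries they were 35 to 49 genes lower and 13 to 29 higher. Without library 2 of QRICH1 KO DMSO 29 genes were higher. TRAM1 was 1.65-fold lower (log2 -0.72 ± 0.11 SE, adjusted p = 0.00484) and SSR1 1.54-fold lower (log2 -0.63 ± 0.11 SE, adjusted p = 0.00828). SRPRB was 1.37-fold lower (log2 -0.46 ± 0.11 SE, adjusted p = 0.0415), SEC61A1 1.36-fold lower (log2 -0.45 ± 0.10 SE, adjusted p = 0.0365) and SRPRA 1.34-fold lower (log2 -0.42 ± 0.10 SE, adjusted p = 0.0429). In each of the 5 every QRICH1 KO Tm library lay below every WT Tm library. That held for 21 of the 38 genes, against 9.06% of all genes, including all 4 TRAP genes and all 3 SEC61 genes, and the reverse held for none, against 9.41%. The median log2 difference of the 38 genes was -0.30, against 0.01 over all genes, and 32 of 38 were below 0. SEC11C (log2 -0.48, adjusted p = 0.07), SSR3 (log2 -0.41, adjusted p = 0.0692) and SPCS2 (log2 -0.41, adjusted p = 0.0857) missed the threshold. The calls of SRPRA, SRPRB and SEC61A1 were lost when any 1 of QRICH1 KO Tm libraries 1, 2 or 3, WT Tm libraries 1, 2 or 3, QRICH1 KO DMSO library 2 or WT DMSO library 2 was left out, which left TRAM1 and SSR1. Without QRICH1 KO Tm library 2 SSR1 was lost too, which left 1 call. SRPRB was also lost without library 1 of QRICH1 KO DMSO. TRAM1 stayed called whichever single library was left out. DESeq2 called 13 of the 38 genes lower (all genes, 2.01%), adding SRP72, SEC61G, SEC63, SSR3, SSR4, RRBP1, SPCS2 and SEC11C. Total-count scaling in edgeR left SRPRA and TRAM1 (all genes, 0.503%), so SSR1 was lost there too.

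**Figure D5:**
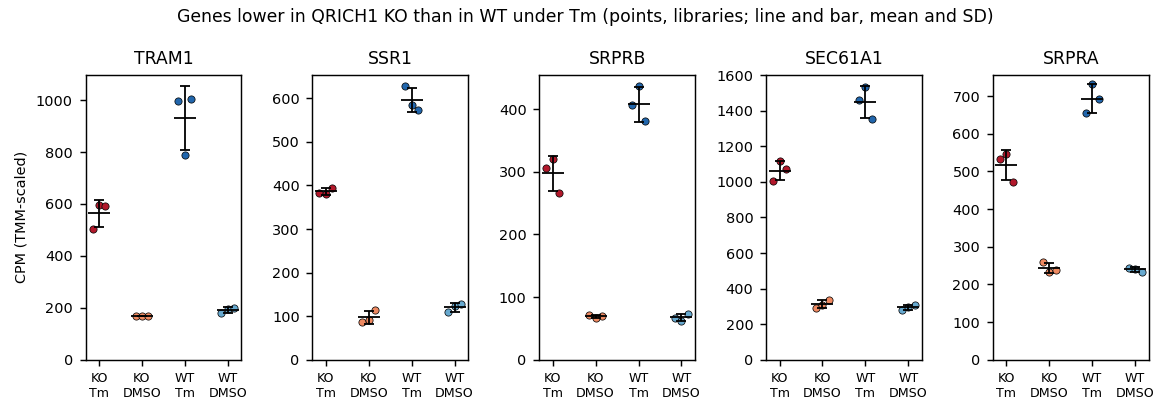
Level in CPM of the 5 genes that were lower in QRICH1 KO than in WT under Tm, in every library (points) with mean and SD. The QRICH1 KO Tm libraries sit below the WT Tm libraries in each panel, while both DMSO groups lie close together near the bottom. The QRICH1 KO DMSO libraries of TRAM1 also lie below its WT DMSO libraries.

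With DMSO none of the 38 genes differed between QRICH1 KO and WT by edgeR or by DESeq2, against 0.0177% of all genes called higher and 0.0795% called lower by edgeR. These were 2 and 9 genes, with 26 higher without library 3 of QRICH1 KO DMSO and 3 lower without library 2 of WT DMSO. The counts among all genes were 24 higher and 36 lower with DESeq2, and 76 and 62 with no filter. Without both libraries 3 of QRICH1 KO they were 40 and 19. At an unadjusted p under 0.05 there were 3 of the 38 genes, SSR1 (log2 -0.30), GET4 (log2 1.25) and EMC7 (log2 0.30). The share of all genes at that p was not taken here, so nothing is read from this count. GET4 had only 1, 20 and 7 counts in WT DMSO. Of the 38 genes 17 were below 0, and libraries were separate for 4 genes higher in QRICH1 KO (all genes, 7.4%) and 1 lower (all genes, 6.09%). The 1 lower gene was TRAM1, with 168, 169 and 167 CPM in QRICH1 KO DMSO against 179, 195 and 201 CPM in WT DMSO. TRAM1 and SSR1, the genes furthest below WT under Tm, were thus on average below WT under DMSO as well, though neither was called.

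Whether the Tm response itself differed was tested as an interaction. In the main edgeR fit no gene of the 38 passed, nor did any of the 11323 genes (0%), while 14 of the 38 and 774 of all genes had an unadjusted p under 0.05. DESeq2 called 44 genes, of which 36 had a lower log2 response in QRICH1 KO (0.765% of the genes it tested), among them SEC61A1 and SEC11C. A lower value can be a smaller rise or a larger fall. In edgeR the log2 response in QRICH1 KO minus that in WT was -0.54 ± 0.14 SE for SEC61A1 (adjusted p = 0.336) and -0.66 ± 0.18 SE for SEC11C (adjusted p = 0.359). RRBP1 had -0.90 ± 0.24 SE (adjusted p = 0.322). It was the 1 gene of the 38 called by edgeR with no filter, which called 12 genes higher and 32 lower in all. Of the 27 genes that rose in WT, 26 had a smaller log2 response in QRICH1 KO, but choosing genes by their WT rise favours this, and it also held for 1261 of the 1431 genes (88.1%) that rose in WT.

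Neighbouring machinery was described by lists that were chosen with results of these data known. Oligosaccharyltransferase, which adds N-glycans to chains leaving the channel, rose in 8 of 11 tested genes in QRICH1 KO (all genes, 9.09%) and 9 of 11 in WT (all genes, 12.6%). OSTC, which tethers it to the channel, had 341, 356 and 351 CPM in QRICH1 KO Tm against 89.5, 78.9 and 96.8 CPM in QRICH1 KO DMSO, and 534, 543 and 523 CPM in WT Tm against 87.4, 99.2 and 114 CPM in WT DMSO. It rose 3.95-fold in QRICH1 KO and 5.32-fold in WT, and was 1.53-fold lower in QRICH1 KO under Tm (adjusted p = 0.00828). MAGT1, RPN1 and TMEM258 of the same complex rose 3.48-, 1.92- and 2.01-fold in QRICH1 KO and 4.47-, 2.68- and 2.42-fold in WT. HM13, the signal peptide peptidase that clears cut signal peptides, rose 2.58-fold in QRICH1 KO and 4.41-fold in WT, and was 1.57-fold lower in QRICH1 KO under Tm (adjusted p = 0.00484). Of 5 such targeting and processing factors 2 rose in QRICH1 KO and 3 in WT, beside the same shares of all genes. Between genotypes under Tm, OSTC was the only 1 of the 11 oligosaccharyltransferase genes called, and HM13 the only 1 of the 5 factors. Among all genes 0.76% were lower and 0.406% higher in QRICH1 KO under Tm.

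The multipass translocon, which assembles proteins with many membrane segments, had 7 tested genes, of which 2 rose in each genotype (TMCO1 and CCDC47) and NCLN fell in QRICH1 KO. Among all genes 9.09% rose and 6.53% fell in QRICH1 KO and 12.6% rose in WT, and nothing is read from counts this small. TMCO1 rose 1.35-fold in QRICH1 KO and 1.57-fold in WT. Of 4 further subunits and paralogs, EMC9 rose in both genotypes, SEC61A2 rose and UBL4A fell in QRICH1 KO. As another import system, 20 mitochondrial import genes were tested, of which 6 rose in QRICH1 KO, and 6 rose and 1 fell in WT (all genes, 9.09% higher in QRICH1 KO, 12.6% higher and 11.1% lower in WT). TIMM17A of the inner membrane rose 2.12-fold in QRICH1 KO and 2.79-fold in WT.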

How the data were processed

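The authors deposited a single table of raw counts, with a column of whole numbers for each of the 12 libraries and 0 columns of other samples. The labels' protocols name a modified Smart-seq2 method with Nextera XT, a chemistry that marks neither strand nor molecules. Trimmomatic, STAR, DESeq2 and hg38 are named per the submitters' processing notes, without roles. How reads were counted (tool, strand, multi-mapping reads, annotation) is not given in the sources used here. Positions, gene overlaps and mRNA lengths came from GENCODE 29, promoter windows from RefSeq.

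Counts were fitted with edgeR 4.0.16 in R 4.3.3 (quasi-likelihood, TMM, filterByExpr with a minimum count of 10, 4 group means over 12 libraries). Adjusted p-values are two-sided with Benjamini-Hochberg adjustment over all 11323 genes, called under 0.05. The interaction subtracts the WT response to Tm from that of QRICH1 KO. The quasi-likelihood test reports no SE, so each SE is the absolute log2 fold change divided by the square root of the F statistic. Statistics were tested on simulated data. Paralog ratios used a prior count of 0.5 and exact permutation (scipy 1.17.1). The genes and lists were chosen with earlier results of these data known. Values in every library are given for genes called between genotypes and, per complex, for the highest and lowest WT response. Up to 4 called genes were named of each other list. Alternatives were DESeq2 1.42.0, total-count scaling, no filter, only the groups compared, a replicate block, leaving out libraries, and motif matches before the start site alone, which gave the same genes. An ERSE with at most 1 mismatch was searched after the data were seen, and found in 0 of 33 genes.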

Additional observations from a re-analysis of the deposited data

How the results depend on the processing

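The counts of genes higher with Tm stayed within 1.5 times of 23 in QRICH1 KO and 27 in WT under every alternative run, with 20 to 25 in QRICH1 KO and 23 to 27 in WT over the runs that left out 1 library. The count lower in QRICH1 KO under Tm was the unstable one. It was 5, and became 2 with total-count scaling, 13 with DESeq2, 9 with no filter, 3 with only the groups compared and 2 without both libraries 3 of QRICH1 KO, and ran from 1 to 7 when 1 library was left out. Total-count scaling also made 1 gene, SGTA, lower with Tm in QRICH1 KO. Among all genes the count lower with Tm in QRICH1 KO was 739, and 389 to 439 without library 2 or 3 of QRICH1 KO Tm or library 1 or 2 of QRICH1 KO DMSO. In the interaction DESeq2 called 2 of these genes (SEC61A1 and SEC11C) and edgeR with no filter 1 (RRBP1). With total-count scaling the median log2 fold change of all genes with Tm was -0.11 in QRICH1 KO and -0.21 in WT, and there were 893 genes higher and 2245 lower in WT, against 1431 higher and 1259 lower with TMM. The replicate numbers did not pair the libraries consistently. The correlation of same-numbered libraries 1, 2 and 3 was 0.21, 0.0021 and 0.27 between QRICH1 KO Tm and QRICH1 KO DMSO, -0.14, -0.05 and 0.02 between WT Tm and WT DMSO, -0.16, 0.01 and 0.05 between QRICH1 KO Tm and WT Tm, and 0.11, -0.0051 and 0.12 between QRICH1 KO DMSO and WT DMSO. In none of these did every library correlate best with its own number. For QRICH1 KO Tm with QRICH1 KO DMSO and for QRICH1 KO DMSO with WT DMSO, 2 of 3 libraries did. For WT Tm with WT DMSO and for QRICH1 KO Tm with WT Tm, 1 of 3 did. With a replicate block the counts of genes stayed at 23 higher in QRICH1 KO, 27 higher in WT (EMC4 lost, GET4 gained) and 5 lower between genotypes. Of the single-gene results 3433 kept their side of the threshold, 94 became weaker, 38 stronger and 0 reversed. Only a result called in the main fit could count as reversed, and a result called in neither fit counted as kept. Included are the genotype comparison under DMSO and the interaction, where the main fit called none of the 38 genes. The 3 libraries of a group limit the precision, and genes near the filter, such as GET4, have wide errors.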
